A study of Mus musculus with 3 samples.

Results

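Macrophage nuclei of the mouse dorsal root ganglion (DRG) were examined in a single-nucleus RNA sequencing comparison of adult and aged mice. The nuclei were selected on their own UMIs, the counts of distinct RNA molecules: a nucleus with more than 1000 detected genes was kept when it held 3 or more UMIs from at least 2 of the macrophage genes Mrc1, Csf1r, F13a1, C1qa, Ms4a7 and Cd68, and when those UMIs came to at least 2 times its UMIs of 8 genes of other DRG cells (Snap25 and Scn9a of neurons, Prx of myelinating Schwann cells, Bcan of satellite glial cells, Flt1 of endothelial cells, Pax5 of B lymphocytes, Skap1 of T lymphocytes and Col1a1 of fibroblasts). Of 19259 nuclei with more than 1000 genes, 344 passed this gate: 61 of 11518 in the adult library, 159 of 5130 in aged replicate 1 and 124 of 2611 in aged replicate 2.

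The mice were C57BL/6, and nuclear RNA came from the L3 to L5 DRG that hold the sensory neurons of the hindlimb. The adult group was 1 library from mice labelled 3 months old, and the aged group was 2 libraries from mice labelled 21 months old. No injury or drug is named for these libraries, and no transgene is named for any group. The study calls the libraries biological replicates, but the labels do not say how many mice went into each, so p-values concern these libraries only. With 1 adult library its own spread is not known and was taken to equal that of the aged pair. With 1 residual degree of freedom, the spread used in the tests of single genes was estimated largely over all genes together. Those p-values do not measure each gene's own spread between libraries, and a very small one is not evidence from many replicates. The series' design text gives the aged mice a lower age than the sample labels do. All 3 libraries are labelled male, while the animal section of the study's methods gives the mice of that aged group as female. Xist, the RNA that coats the inactive X chromosome of female cells, had a UMI in 96.7% of adult macrophage nuclei and in 93.7% and 98.4% of those of aged replicates 1 and 2, and genes of the Y chromosome had 6, 10 and 4 UMIs. The labelled sex was not borne out by the macrophage nuclei of any library. Over all nuclei Xist had a UMI in 85.5%, 66.3% and 72.2%, and Y chromosome genes had 2206, 830 and 347 UMIs. Triplets of values below are ordered as adult, then aged replicate 1, then aged replicate 2.

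Macrophages of peripheral ganglia lie between neurons and their satellite glial cells and along blood vessels. They clear dead cells and myelin debris through engulfment receptors, break the cargo down in lysosomes, export or store its cholesterol, and present antigens to T lymphocytes on MHC class II. Some are long-lived residents that take up serum proteins and iron, marked by genes such as Cd163 and Lyve1, and others arise from blood monocytes that carry the chemokine receptor Ccr2.

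The gate's own genes describe the selection and were not tested. Mrc1, the mannose receptor, was at 809, 571 and 443 CPM (UMIs per 1000000 UMIs summed over a library's macrophage nuclei), Csf1r, the receptor for the growth factor CSF1, at 478, 334 and 309.6 CPM, F13a1 at 1800.1, 441 and 815 CPM and Ms4a7 at 393, 705 and 608 CPM. C1qa was at 171, 121 and 88.0 CPM and Cd68 at 57.0, 119.9 and 97.8 CPM. Each of the 6 genes was found in every library. The median nucleus held 8, 9 and 9 UMIs of the 6 genes. Just inside the threshold lay 7, 6 and 8 nuclei with exactly 3 such UMIs, and just outside it 3, 15 and 13 nuclei with 2 UMIs from 2 genes and 35, 26 and 23 nuclei with enough UMIs from 1 gene alone. A further 39, 84 and 50 nuclei had enough macrophage UMIs but too many of other cells, and their median totals of 16845, 16103 and 9760 UMIs were far above those of the members. No doublet caller was run, and mixed barcodes were set aside by this ratio alone, which lets a member hold some UMIs of other cells. Members with 0 UMIs of the 8 genes of other cells were 20 of 61, 89 of 159 and 84 of 124.

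Genes that the gate did not use were measured on the same nuclei, so their enrichment is a description too. A list of 20 macrophage identity genes outside the gate, among them C1qb, Adgre1 (F4/80), Cx3cr1 and Tyrobp, summed to 4637, 6036 and 5888 CPM in macrophage nuclei against 260.5, 425 and 352 CPM in all other nuclei. The genes with the largest ratio to other nuclei were mostly immune receptors and enzymes, led by Lilra5 at a ratio of 150.0, Hpgds, the haematopoietic prostaglandin D synthase, at 150.0 and Fcrls at 138. Further genes among the 20 highest, which also held 2 predicted genes, were Lilrb4b at 124, Lilrb4a at 122, Ms4a4a at 121, Stab1 at 103, Cd84 at 103, Adgre1 at 98.8, Tlr7 at 88.7 and Msr1 at 86.0. The label of macrophage thus had many genes behind it besides the 6 that made the gate. Several defining markers of nearby immune types were absent or near absent: Cd3e, Cd3d and Cd3g of T lymphocytes and Ms4a1 of B lymphocytes had 0 UMIs in all 3 libraries, Cd79a had 1, 0 and 0, Mcpt4 of mast cells had 0, and the dendritic cell genes Xcr1 and Clec9a had 0 and 1, 1 and 1. Of the microglial genes Sall1 had 0 UMIs and Tmem119 had 1, 1 and 1. Other members of those lists were present, among them the B lymphocyte adaptor Bank1 at 489.9, 108 and 65.2 CPM, the microglial purinergic receptor P2ry12 at 154, 141 and 147 CPM and the dendritic cell factor Batf3 at 91.1, 27.1 and 31.0 CPM. The microglial list summed to 268, 228 and 243 CPM and the dendritic cell list to 182, 192 and 219.9 CPM, against 23.3, 25.8 and 21.6 and 62.5, 65.4 and 71.4 CPM in other nuclei.

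RNA of other DRG cells was present and was higher in the adult library. Marker lists of neurons summed to 1498, 904 and 486 CPM, of myelinating Schwann cells to 1162, 387 and 288 CPM, of satellite glial cells to 535, 168 and 114 CPM, of fibroblasts to 461, 131 and 97.8 CPM, of B lymphocytes to 701, 180.5 and 130.3 CPM and of erythroid cells to 569.6, 232 and 187 CPM. Read from neuron and Schwann cell genes in barcodes of 100 or fewer UMIs, free RNA made up an estimated 20.7%, 7.46% and 5.51% of the macrophage UMIs. The T lymphocyte list, at 11.4, 20.6 and 26.1 CPM, and the granulocyte list, at 177, 334 and 283 CPM, were lowest in the adult library instead. Malat1 took 3.96%, 1.49% and 1.41% of macrophage UMIs and mitochondrial RNA 0.294%, 0.118% and 0.0741%. The macrophage nuclei summed to 175550, 775719 and 613801 UMIs, with a median of 2312, 3866 and 4137 UMIs and 1432, 2150 and 2205 genes per nucleus, so the adult values were the shallowest. No cell barcode was shared between libraries among macrophage nuclei, and at most 1 was shared by any pair of libraries among all nuclei. A gene with 0 UMIs could have reached 17.1, 3.87 and 4.89 CPM in the 3 libraries, the level of 3 UMIs.

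The share of macrophages among nuclei was higher in both aged libraries. Macrophage nuclei made up 0.530% of the adult nuclei (95% Clopper-Pearson interval 0.405% to 0.680%). In aged replicate 1 they made up 3.10% (2.64% to 3.61%), and the highest share, 4.75% (3.97% to 5.64%), was that of aged replicate 2. The aged mean was 3.92% ± 1.17 (SD, n = 2), 7.41 times the adult share, and each aged library stood 5.85 and 8.97 times above it. With 3 libraries an exact permutation test could not go below p = 0.333, which is the value it gave (two-sided), so the difference rests on 1 adult library without a test that could pass. The intervals cover counting error only. Since shares of nuclei sum to a whole, more macrophages and fewer other nuclei cannot be told apart.

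The aged nuclei were deeper, and a gate on UMIs depends on depth. After every nucleus was thinned to 1000 UMIs, 33, 68 and 36 nuclei passed, which is 0.287% (0.197% to 0.402%), 1.33% (1.03% to 1.68%) and 1.38% (0.968% to 1.90%) of nuclei, a ratio of 4.72. With more than 2000 genes per nucleus the shares were 0.284%, 3.13% and 4.81% on 13, 90 and 76 macrophage nuclei, and with more than 500 genes the ratio was 5.57. The aged libraries thus stood above the adult one at each depth limit, by a ratio that moved with the limit. Nuclei gated by the same kind of rule on lymphocyte genes did not show the same shares. B lymphocyte nuclei were 1.37%, 1.13% and 0.881% of nuclei, highest in the adult library, and T lymphocyte nuclei 0.295%, 0.741% and 0.613%.

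**Figure D1:**
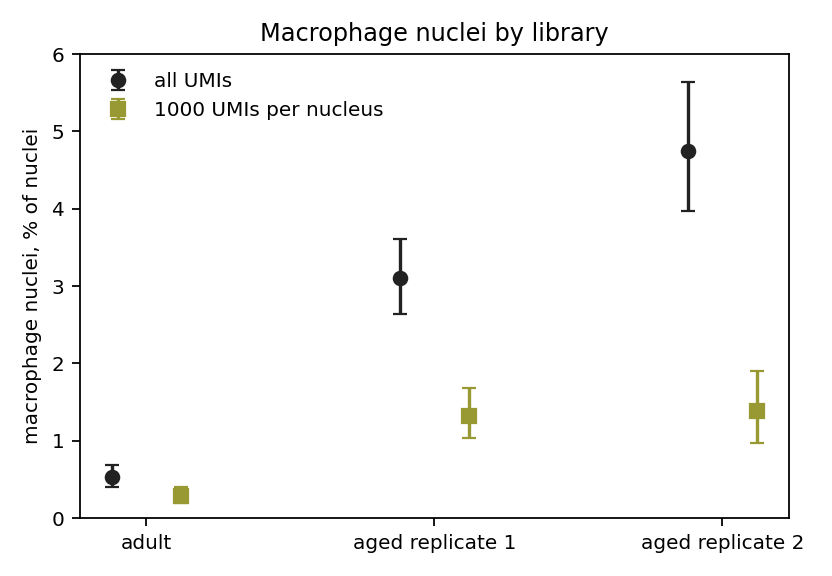
Macrophage nuclei as a percentage of all nuclei with more than 1000 genes in each library, from all UMIs (circles) and after thinning each nucleus to 1000 UMIs (squares), with 95% Clopper-Pearson intervals. The adult library sits at 0.530% and the aged libraries at 3.10% and 4.75%, and after thinning at 0.287%, 1.33% and 1.38%.

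Genes were then compared between adult and aged macrophages by summing the UMIs of the macrophage nuclei of each library and testing the 3 sums with edgeR's quasi-likelihood test, which had 1 residual degree of freedom. Of 10164 genes tested, 1267 had a Benjamini-Hochberg adjusted p under 0.05, or 12.5%, with 609 higher in the aged libraries (5.99%) and 658 lower (6.47%), and the median log2 fold change over all genes was 0.04. DESeq2 called 158 genes on the same sums, all of them among the 1267. It gave an adjusted p to 5236 genes only, and a list member without one counts as not called. The calls below are therefore those of edgeR, with the DESeq2 count beside the lists described at most length. Because neuronal and glial RNA was higher in the adult sums, the calls were also counted after subtraction of free RNA, which left 900 calls, 808 of them shared. Markers of other cells still differed between the ages after the subtraction. The satellite glial, myelinating Schwann and fibroblast lists kept 2 genes called lower each, with medians of −2.13, −1.91 and −1.48. Of the neuron list 0 genes were fitted. The subtraction took 20.7%, 7.46% and 5.51% of the sums and set negative counts to 0. A rise after it can therefore rest on an adult count cut to near 0. Bulk sums of a cell type cannot tell a lower level in each nucleus from fewer nuclei of a subtype. The gene lists below were chosen with earlier results of these data known. The direction of a list is therefore a description and gives no independent evidence. Counts of list members called are to be read beside the 5.99% higher and 6.47% lower over all genes.

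Genes of lipid-associated macrophages, which take up and store lipid, rose together in the aged libraries. Of 22 listed genes 21 were in the files and 20 passed the filter on low counts. Of these 13 rose in the aged libraries and 0 fell, with a median log2 fold change of 1.51 against 0.04 over all genes. Gpnmb, a transmembrane glycoprotein of phagocytic macrophages (ENSMUSG00000029816, chromosome 6, 49036546 to 49070929, plus strand, GRCm38), had 4, 1652 and 1462 UMIs, or 22.8, 2129.6 and 2382 CPM. Both aged libraries lay far above the adult one (log2 fold change 6.62, SE 0.34, adjusted p = 7.75e-77). Lgals3, encoding galectin-3, had 16, 592 and 594 UMIs and 91.1, 763 and 968 CPM (log2 fold change 3.24, SE 0.28, adjusted p = 4.83e-27), and Trem2, a lipid-sensing receptor (ENSMUSG00000023992, chromosome 17, 48346401 to 48354147, plus strand), had 6, 167 and 139 UMIs and 34.2, 215 and 226 CPM (log2 fold change 2.68, SE 0.44, adjusted p = 5.64e-08). For none of these did the adult value reach the lower of the aged pair.

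Some genes of lipid enzymes and carriers rose with these. Lpl, the lipoprotein lipase that frees fatty acids from triglycerides (ENSMUSG00000015568, chromosome 8, 68880491 to 68907448, plus strand), had 1, 156 and 152 UMIs (ratio 38.9, counting interval 6.93 to 1542; adjusted p = 1.63e-13). Fabp4, a fatty acid carrier, had 0, 65 and 41 UMIs and was at least 4.41-fold higher in the aged libraries, counted against 3 UMIs in the adult one. Those ratios rest on a nearly empty adult count, and genes with more adult UMIs moved the same way by less. Abcg1, a cholesterol exporter, had 17, 255 and 214 UMIs (log2 fold change 1.80, SE 0.31, adjusted p = 4.17e-07). Soat1, which esterifies cholesterol for storage, had 28, 352 and 303 UMIs (log2 fold change 1.57, SE 0.27, adjusted p = 2.02e-07), and Plin2, the coat protein of lipid droplets, had 22, 214 and 244 (log2 fold change 1.42, SE 0.29, adjusted p = 4.55e-05). Itgax, encoding CD11c, had 1, 109 and 103 UMIs (ratio 26.8, counting interval 4.76 to 1063) and Spp1, encoding osteopontin, 1, 57 and 29 (ratio 10.9, counting interval 1.90 to 434), with adjusted p = 6.44e-09 and 0.0042. Ctsd, Ctsb and Lipa, also on the lysosome list, completed the 13 that rose. Apoe, the main lipid carrier that macrophages secrete, was at 860.1, 861 and 608 CPM, with the values of both ages side by side (log2 fold change −0.22, adjusted p = 0.52). DESeq2 called 6 of the list higher, edgeR on nuclei thinned to 1000 UMIs 6 of 18 tested, and edgeR after free RNA was subtracted 15, with none lower in any of these.

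**Figure D2:**
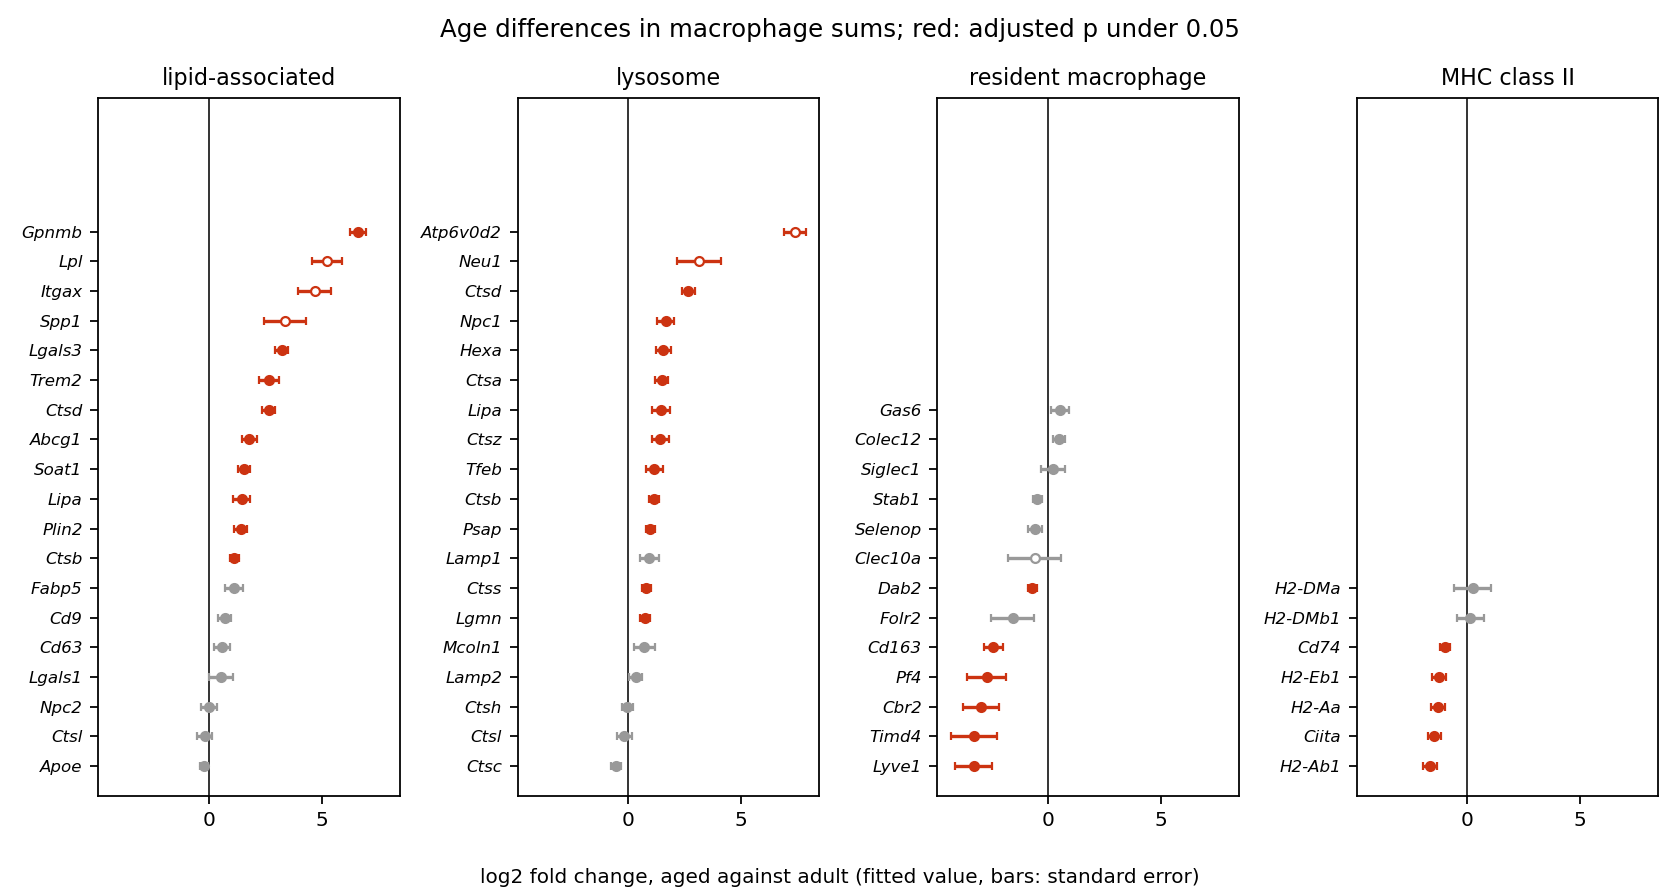
Fitted log2 fold changes of aged against adult macrophage sums with standard errors derived from the F statistic of the test, for members of 4 gene lists that passed the filter and had an adult UMI, red where the adjusted p was under 0.05 and open where the adult library had 3 or fewer UMIs, whose fitted values depend on a prior count. In the lipid-associated and lysosome lists 13 of 20 and 15 of 22 tested genes rose, genes not drawn included, and in the resident and MHC class II lists 6 of 13 and 5 of 7 fell.

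Lysosome genes rose next to the lipid genes. Of 23 listed, 22 passed the filter, 15 rose and 0 fell, with a median log2 fold change of 1.05. Ctsd, an aspartic protease of the lysosome (ENSMUSG00000007891, chromosome 7, 142375911 to 142388038, minus strand), had 18, 559 and 356 UMIs and 103, 721 and 580.0 CPM (log2 fold change 2.67, SE 0.28, adjusted p = 2.01e-18). Atp6v0d2, a subunit of the proton pump that acidifies lysosomes (ENSMUSG00000028238, chromosome 4, 19876841 to 19922605, minus strand), had 1, 757 and 618 UMIs (ratio 174, counting interval 31.1 to 6866; adjusted p = 4.65e-50), the widest gap of the list. Both aged libraries stood above the adult one in each case. Hexa, an enzyme of glycolipid breakdown, had 18, 206 and 209 UMIs (log2 fold change 1.56, SE 0.31, adjusted p = 2.47e-05). Npc1, which moves cholesterol out of the lysosome, had 11, 154 and 120 UMIs (log2 fold change 1.65, SE 0.39, adjusted p = 0.000433). Lipa, the lysosomal acid lipase, had 12, 135 and 124 UMIs (log2 fold change 1.45, SE 0.38, adjusted p = 0.00238), and Ctsb, a cysteine protease, had 64, 609 and 500 (log2 fold change 1.13, SE 0.21, adjusted p = 5.04e-06). Together these cover degradation of protein, glycolipid and cholesterol ester.

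Further lysosome genes that rose were Ctsa, the protective protein of the lysosomal sialidase, with 20, 218 and 217 UMIs (log2 fold change 1.47, SE 0.30, adjusted p = 4.09e-05), and Psap, the precursor of the saposins, with 83, 743 and 548 (log2 fold change 0.97, SE 0.20, adjusted p = 5.26e-05). Neu1, that sialidase, had 1, 37 and 34 UMIs (ratio 8.97, counting interval 1.56 to 359). Ctsz, Ctss and Lgmn rose by log2 fold changes of 1.42, 0.79 and 0.76. Tfeb, a transcription factor that drives lysosomal genes, had 14, 127 and 117 UMIs (log2 fold change 1.15, SE 0.37, adjusted p = 0.0212). Lamp1, Lamp2, Ctsc, Ctsh, Ctsl and Mcoln1 did not pass the test, and the membrane protein Lamp1 was at 62.7, 116 and 124 CPM (log2 fold change 0.93, adjusted p = 0.152). With free RNA subtracted 11 of the list rose and 1 fell, DESeq2 called 3 higher, and 5 of 21 rose after thinning to 1000 UMIs.

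TFEB and its relative MITF bind the E-box CACGTG, which reads the same on both strands, and promoters of the lysosome genes that rose were searched for these letters. The RefSeq promoters (GRCm38.p6, 250 bases before to 50 after a start) held an entry for 10 of the 15 genes, and CACGTG stood in 3 of the 10, Ctsa, Ctsd and Lgmn, against 6.86% of the 27025 genes with an entry. The 110 bases before the start of Ctsd (chr7:142387828-142387937, minus strand) and Ctsa (chr2:164833663-164833772, plus strand) are shown as the promoters of 2 genes that rose, with the E-box in capitals. It begins 98 bases before the Ctsd start and 12 before this Ctsa start, while the other Ctsa start in the table has none in its 110 bases. The match is one of letters only, and no binding was measured. Lysosome genes that did not rise were not counted apart, and a link between the box and the rise was not tested.
Ctsd: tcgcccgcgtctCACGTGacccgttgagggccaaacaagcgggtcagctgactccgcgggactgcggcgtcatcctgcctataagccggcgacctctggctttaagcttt
Ctsa: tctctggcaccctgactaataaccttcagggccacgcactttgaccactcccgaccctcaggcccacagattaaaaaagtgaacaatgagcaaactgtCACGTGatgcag

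Scavenger and engulfment receptors moved in both directions. Of 24 listed, 23 passed the filter, 9 rose and 5 fell, with a median log2 fold change of 0.64. Mertk, a receptor for dying cells that is bridged to them by Gas6 and protein S, had 97, 840 and 630 UMIs and 553, 1083 and 1026 CPM (log2 fold change 0.93, SE 0.20, adjusted p = 6.10e-05). Abca1, which loads cholesterol from engulfed material onto lipoproteins (ENSMUSG00000015243, chromosome 4, 53030787 to 53159895, minus strand), had 69, 1056 and 1016 UMIs and 393, 1361 and 1655 CPM (log2 fold change 1.94, SE 0.21, adjusted p = 3.27e-18). For both genes each aged library lay above the adult one. Lrp1, a receptor for lipoproteins and proteases, rose by a log2 fold change of 1.48 (adjusted p = 2.91e-08), the scavenger receptors Msr1 and Cd36 by 1.01 and 0.86, and the integrin Itgb5 by 1.37. Stab2, a clearance receptor for hyaluronan, had 3, 47 and 60 UMIs (ratio 4.51, counting interval 1.50 to 22.2). Gulp1, an adaptor of engulfment receptors, had 49, 51 and 49 UMIs and fell (log2 fold change −1.94, SE 0.31, adjusted p = 4.46e-08), as did Scarb1, the receptor for high-density lipoprotein, and Megf10 (log2 fold changes −1.43 and −1.50). Timd4, a receptor for phosphatidylserine on dying cells, also on the resident list, had 9, 4 and 3 UMIs, few counts in every library, and fell, as did Cd163. DESeq2 called 3 of the list higher and 0 lower, and after free RNA was subtracted 5 rose and 5 fell.

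Of the 19 identity genes outside the gate that passed the filter 5 were higher and 1 lower, with a median of 0.23. The lipid and lysosome medians were 1.51 and 1.05, and the difference between lists was not tested. After free RNA was subtracted 2 identity genes were higher and 3 lower, with a median of 0.02. With more than 2000 genes per nucleus 7 were higher and 0 lower. Their median was then 0.905, and the lipid and lysosome medians were 1.97 and 1.84. DESeq2 called 1 of the identity genes higher. Of 21 macrophage transcription factors, 19 passed the filter, 3 rose and 1 fell, with a median of 0.17. Mitf, a relative of TFEB (ENSMUSG00000035158, chromosome 6, 97807052 to 98021349, plus strand), had 62, 994 and 674 UMIs and 353, 1281 and 1098 CPM and rose (log2 fold change 1.75, SE 0.21, adjusted p = 3.40e-14). Ikzf1, encoding Ikaros, rose by a log2 fold change of 0.60 (adjusted p = 0.0423), and Bhlhe40 had 1, 32 and 28 UMIs (ratio 7.58, counting interval 1.31 to 304; adjusted p = 0.0409). Maf, which acts in resident macrophages, had 116, 313 and 195 UMIs and fell (log2 fold change −0.87, SE 0.20, adjusted p = 0.000336). Spi1, encoding PU.1, the lineage factor of macrophages, was at 330.4, 244 and 236 CPM and did not pass (log2 fold change −0.46, adjusted p = 0.235). DESeq2 called 1 of the factors higher, and free RNA subtraction left 1 higher and 1 lower. With more than 2000 genes per nucleus 6 of 17 were higher and 1 lower, with a median of 1.28. Over all genes of the main test 5.99% were higher and 6.47% lower.

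Genes of resident perivascular and connective tissue macrophages were lower in the aged libraries. Of 18 listed, 13 passed the filter, 6 fell and 0 rose, with a median log2 fold change of −0.70. Cd163, the receptor for haemoglobin bound to haptoglobin (ENSMUSG00000008845, chromosome 6, 124304656 to 124330527, plus strand), had 33, 30 and 19 UMIs and 188, 38.7 and 31.0 CPM, both aged libraries below the adult one (log2 fold change −2.41, SE 0.40, adjusted p = 1.28e-07). Dab2, an adaptor of endocytosis, had 125, 383 and 234 UMIs (log2 fold change −0.70, adjusted p = 0.00496). Lyve1, a hyaluronan receptor, had 13, 3 and 7 UMIs, Cbr2, a carbonyl reductase, 12, 10 and 2, Timd4 9, 4 and 3 and Pf4, a chemokine, 10, 10 and 2, and these 4 fell by log2 fold changes of −3.30, −2.98, −3.29 and −2.72. Of the 13 adult UMIs of Lyve1, 10 lay in 1 nucleus. Folr2, the folate receptor of resident macrophages, had 6, 10 and 6 UMIs (adjusted p = 0.324), and Stab1 and Selenop did not pass either.

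The resident list depended on which nuclei were kept. When the nucleus with most UMIs of a gene was left out of each library, an alternative chosen after the data were seen, 9 of the list passed the filter and 4 fell. DESeq2 called 0 of the list in either direction, thinning to 1000 UMIs left 1 lower of 6 with a median of −0.30, and free RNA subtraction left 7 lower of 13. With more than 2000 genes per nucleus, which left 13 adult nuclei, 1 of 9 fell and the median was 0.02. Cd163 had a log2 fold change of −1.90 in those nuclei, and −2.94 without its highest nucleus.

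MHC class II genes, which present peptides to helper T lymphocytes, were lower as well. Of 11 listed, 7 passed the filter, 5 fell and 0 rose, with a median of −1.27. H2-Aa, an alpha chain (ENSMUSG00000036594, chromosome 17, 34282744 to 34287823, minus strand), had 42, 93 and 42 UMIs and 239, 119.9 and 68.4 CPM (log2 fold change −1.32, SE 0.31, adjusted p = 0.000526). H2-Ab1 and H2-Eb1, beta chains, had 47, 72 and 45 and 46, 107 and 47 UMIs (268, 92.8 and 73.3 CPM and 262, 138 and 76.6 CPM), with log2 fold changes of −1.68 and −1.27. In each of these the adult library was highest and aged replicate 2 lowest. Cd74, the invariant chain that guards the peptide groove, had 91, 253 and 112 UMIs and 518, 326 and 182 CPM (log2 fold change −1.01, SE 0.22, adjusted p = 8.83e-05). Ciita, the coactivator that class II transcription needs (ENSMUSG00000022504, chromosome 16, 10480059 to 10528418, plus strand), had 47, 87 and 49 UMIs and 268, 112 and 79.8 CPM (log2 fold change −1.46, SE 0.30, adjusted p = 4.06e-05). H2-DMa and H2-DMb1, which load peptides, did not pass (adjusted p = 0.897 and 0.924).

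The class II difference ended in deeper nuclei. With more than 2000 genes per nucleus 0 of 7 fell, 4 of 7 had a positive log2 fold change, the median was 0.86, and Cd74 and H2-Eb1 changed direction to 0.86 and 1.11 (adjusted p = 0.190 and 0.346). Only 13 adult nuclei entered that fit, and DESeq2 called 0 of the list on all nuclei. The list of B lymphocytes, cells that carry class II transcripts, was higher in the adult sums at 701, 180.5 and 130.3 CPM, much of it from Bank1. Adult Bank1 was at 488 CPM in nuclei with 2 or more class II UMIs and 395 CPM in nuclei with 0. The part of B lymphocyte RNA in the result was not tested. After free RNA was subtracted, 5 of the class II list fell, and the 1 fitted gene of the B lymphocyte gate was still lower (log2 fold change −2.68). Class I genes, which all nucleated cells carry, had 0 higher and 1 lower of 16, with a median of 0.00, beside 5.99% and 6.47% over all genes.

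Class II promoters share a box bound by the factor NF-Y, whose core CCAAT reads ATTGG on the other strand. CTGATTGG, searched on both strands, stood in the promoters of 4 of the 8 class II genes with a RefSeq entry (H2-Aa, H2-Eb1, H2-Eb2 and H2-Oa), against 4.43% of all genes. The 110 bases before the starts of H2-Aa (chr17:34287824-34287933, minus strand) and H2-Eb1 (chr17:34305757-34305866, plus strand) are shown because both genes fell together, and the capitals mark the box, which begins 51 and 62 bases before the start.
H2-Aa: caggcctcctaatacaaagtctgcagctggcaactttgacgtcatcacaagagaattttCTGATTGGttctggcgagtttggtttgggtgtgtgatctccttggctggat
H2-Eb1: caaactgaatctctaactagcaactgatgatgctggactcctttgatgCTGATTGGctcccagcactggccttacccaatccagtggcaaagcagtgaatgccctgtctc

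Signals that recruit and sustain macrophages showed few calls. Of 22 such genes 18 passed the filter, 2 rose, the receptor subunits Csf2rb and Tgfbr1 (log2 fold changes 1.31 and 0.54), and 1 fell, with a median of 0.55. Over all genes tested 5.99% rose and 6.47% fell. The gene that fell was Ccr2, the receptor by which monocytes leave the blood, with 54, 54 and 107 UMIs and 308, 69.6 and 174 CPM (log2 fold change −1.36, SE 0.28, adjusted p = 3.47e-05), and the aged libraries differed from each other by more than 2 times. Of 9 monocyte genes 8 passed and Ccr2 was the 1 that fell, and of 4 dendritic cell genes that passed Itgax rose and Batf3 fell. With more than 2000 genes per nucleus Batf3 turned to a log2 fold change of 0.82 (adjusted p = 0.798). DESeq2 called 0 of the dendritic cell genes, and the gate of 5 UMIs left 1 higher and 0 lower. Of 30 cytokines, chemokines and inflammatory enzymes 15 passed, 3 rose and 2 fell. Igf1, a growth factor, had 18, 327 and 251 UMIs and 103, 422 and 409 CPM and rose (log2 fold change 2.02, SE 0.30, adjusted p = 1.32e-09). Il15 rose by a log2 fold change of 1.10, and Il1a, with 0, 29 and 18 UMIs, was at least 1.95-fold higher. Ccl12, with 12, 9 and 2 UMIs, and Il16 fell, and Il6, Ptgs2 and Cxcl10 had 0 UMIs in all 3 libraries. DESeq2 called 1 of these 15 higher and 0 lower, and 0 of the 18 recruitment genes. For those 18, free RNA subtraction left 0 higher and 1 lower, and the gate of 5 UMIs 1 higher and 0 lower. With more than 2000 genes per nucleus 5 were higher and 1 lower, with a median of 1.45.

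Sensors of microbial products had 4 higher and 0 lower of 14 that passed, with a median of 0.70, and DESeq2, free RNA subtraction and thinning each left 1 higher. Cd180, a Toll-like receptor homologue, had 13, 260 and 190 UMIs (log2 fold change 2.12, SE 0.34, adjusted p = 2.08e-08), and its partner Ly86 had 67, 551 and 355 (log2 fold change 0.76). The RNA sensor Tlr8 had 4, 78 and 47 UMIs (log2 fold change 1.96) and Tlr13 1, 35 and 24 (ratio 7.45, counting interval 1.29 to 299). The list of 40 interferon-inducible genes, like the other lists, was written with earlier results of these libraries known. It gives no independent evidence of a direction. Of the 40 genes 38 were in the files, 31 passed, 3 rose and 4 fell. Its median was −0.09, and −0.26 with genes of 0 adult UMIs at their bound. Iigp1 had 1, 104 and 33 UMIs (ratio 17.3, counting interval 3.06 to 689), Gbp8 1, 66 and 12 (ratio 9.85, counting interval 1.72 to 394) and Gbp9 0, 29 and 12 (at least 1.67-fold higher), while Irf1, Trim30a and Parp14 were among those that fell, by log2 fold changes of −1.26, −0.73 and −1.17. The 3 that rose had 1 or 0 adult UMIs, and the shares of 31 that rose and fell stand beside 5.99% and 6.47% over all genes. DESeq2 called 0 of the list in either direction, and thinning left 1 higher and 1 lower of 14.

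Other surface and metabolic lists gave 0 to 4 calls each, to be read beside the 5.99% of all genes that rose and the 6.47% that fell. Of 9 complement genes that passed, the receptor C3ar1 rose (log2 fold change 1.39) and the receptor C5ar1 fell (−1.72), and DESeq2, thinning and the gate of 5 UMIs left 0 calls among them, free RNA subtraction 0 higher and 2 lower. Of 6 Fc receptor genes 0 passed the test. Of 10 iron and heme genes the metal transporter Slc11a1 and the biliverdin reductase Blvra rose, and Fth1, the ferritin heavy chain, with 157, 277 and 145 UMIs, fell (log2 fold change −1.58, SE 0.19, adjusted p = 2.96e-14), as did Cp. Of 12 purinergic and other surface receptors the ATP-gated channel P2rx4, with 32, 405 and 279 UMIs (log2 fold change 1.42, SE 0.26, adjusted p = 1.36e-06), and the mechanosensitive channel Piezo1 (log2 fold change 1.60) rose. Of the endothelin system, which the study followed in satellite glial cells, 2 of 7 genes passed the filter and the receptor Ednrb, with 12, 9 and 19 UMIs, fell (log2 fold change −1.72, SE 0.62, adjusted p = 0.0467). DESeq2, free RNA subtraction, the gate of 5 UMIs, more than 2000 genes and leaving out the highest nucleus each left 0 calls in this list, and the satellite glial cell list, which was also lower in the aged sums, was at 535, 168 and 114 CPM, whose part in the result was not tested. The ligands Edn1 and Edn3 had 0 UMIs in macrophage nuclei of all 3 libraries. Ednrb was at 68.4, 11.6 and 31.0 CPM in macrophage nuclei and at 34.2, 27.4 and 19.7 CPM in other nuclei.

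Genes of cell division gave a single call. Of 12 cell cycle genes that passed 0 rose and 1, Cenpf, fell, beside 5.99% and 6.47% over all genes. With more than 2000 genes per nucleus 4 of 11 fell, with a median of −1.22, and free RNA subtraction left 1 lower. DESeq2, thinning, the gate of 5 UMIs and leaving out the highest nucleus each left 0 calls. In the last of these the median was 0.43. The division markers Mki67 and Top2a had 22, 31 and 76 and 27, 46 and 115 UMIs from 4, 6 and 15 and from 4, 7 and 20 nuclei, and neither passed the test (adjusted p = 0.312 and 0.593). Of 8 senescence-associated genes that passed, Mmp12, macrophage elastase, with 1, 100 and 88 UMIs (ratio 23.8, counting interval 4.21 to 943; adjusted p = 8.74e-08), was the 1 that rose. The list's median was 1.02, and 0.17 with genes of 0 adult UMIs at their bound. Of 9 immediate early and heat shock genes Atf3 rose, with 2, 49 and 43 UMIs, and Nr4a1, Hspa8 and Hsp90aa1 fell by log2 fold changes of −2.65, −1.02 and −1.22. The 3 falls were lost after free RNA was subtracted, when 2 of 8 genes of the list rose and 0 fell. Hspa8 then turned to a log2 fold change of 7.19 (adjusted p = 0.0303). Rises after the subtraction may rest on adult counts cut to near 0, which was not tested. DESeq2 called 0 of the list.

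The 10 genes with the largest rise all had 0 UMIs in the adult macrophage nuclei, so only a lower bound on their change can be given. Bcar3, a signalling adaptor (ENSMUSG00000028121, chromosome 3, 122294136 to 122530191, plus strand), had 267 and 272 UMIs in the aged libraries and was at least 23.04-fold higher. Shisa9, known as an auxiliary subunit of AMPA receptors, was at least 13.3-fold, Anpep, aminopeptidase N, at least 12.1-fold and Ttyh2, of the tweety family, at least 11.7-fold higher. Receptors for transmitters followed, the serotonin receptor Htr2b with 94 and 72 UMIs (at least 6.98-fold) and the adrenergic receptor Adra1a with 71 and 78 (at least 6.40-fold). The lectin Cd209c, kynureninase Kynu, the olfactory receptor Olfr111 and the ubiquitin ligase Rnf128 were at least 6.36-, 6.00-, 4.91- and 4.77-fold higher.

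Among the 10 with the largest fall several rested on 1 nucleus, and others are known from other cell types. Bc1, a short neuronal RNA, had 65, 1 and 0 UMIs, and it was also lower in the other nuclei of the aged libraries, at 585, 11.5 and 6.24 CPM. Fabp7, a satellite glial cell gene, had 37, 7 and 8 UMIs (log2 fold change −4.25, adjusted p = 2.93e-16). Of the 25 adult UMIs of Ltbp1, which holds latent TGF-beta, 21 lay in 1 nucleus, all 17 of the protease inhibitor Slpi lay in 1, 20 of 24 of Slc25a21 in 1 and 11 of 26 of Col8a1 in 1. Without the highest nucleus of each library Ltbp1 and Slpi no longer passed the filter and the change of Slc25a21 shrank to −1.68 on the log2 scale (adjusted p = 0.507). Sh3tc2, Fxyd7, Enpp2 and Pde10a had 16, 5 and 4, 22, 4 and 9, 21, 11 and 3 and 19, 5 and 8 UMIs, with log2 fold changes of −3.76, −3.69, −3.56 and −3.48.

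Single nuclei show how the rise of Gpnmb was spread. The adult library had 1 of 61 macrophage nuclei with 3 or more Gpnmb UMIs (1.64%, 95% Clopper-Pearson interval 0.0415% to 8.80%). The counts were 88 of 159 for aged replicate 1 (55.3%, 47.3% to 63.2%) and 76 of 124 for aged replicate 2 (61.3%, 52.1% to 69.9%). Gpnmb had 0 UMIs in 60, 51 and 36 nuclei, and the highest nucleus held 4, 88 and 92. Among nuclei outside the gate 0.436%, 2.11% and 2.13% had 3 or more Gpnmb UMIs, and 5 of 50, 69 of 105 and 34 of 53 of those carried a UMI of a gate gene. The aged macrophages were thus spread from none to many Gpnmb UMIs, and nearly all adult ones had none. Nuclei rich in Gpnmb were deeper, with a median of 5018 and 4776 UMIs in the aged libraries against 2580 and 3525 in those with 0. With these macrophage nuclei, gated on all their UMIs, then thinned to 1000 UMIs each, 1 of 61, 86 of 159 and 74 of 124 had a Gpnmb UMI (1.64%, 54.1% and 59.7%).

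**Figure D3:**
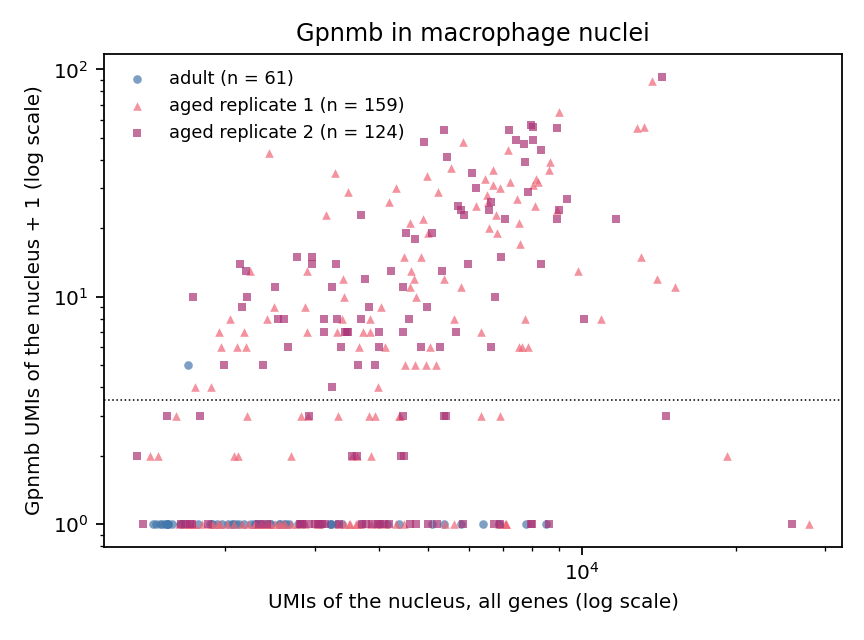
Gpnmb UMIs plus 1 against total UMIs of each macrophage nucleus, both on log scales, with the dotted line just below 3 UMIs. Of the adult nuclei 1 of 61 lies above the line, and of the aged nuclei 88 of 159 and 76 of 124 do, all of them at totals from 1730 to 15205 UMIs.

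Aged nuclei with 3 or more Gpnmb UMIs were set beside aged nuclei with 0, a split made after its values were seen and given without a test. Atp6v0d2 was at 1435 and 1501 CPM in the Gpnmb-rich nuclei of aged replicates 1 and 2 and at 54.5 and 30.9 CPM in the nuclei with 0. Ctsd was at 932 and 778 against 256 and 136 CPM, Lgals3 at 1069.8 and 1360.2 against 147 and 210.2 CPM and Lpl at 269 and 334 against 81.7 and 92.7 CPM. These 4 genes were thus higher in the nuclei that held Gpnmb, and the adult levels of Ctsd and Lpl were 103 and 5.70 CPM. Abca1, at 1696 and 2196 against 676 and 383 CPM, and Mertk, at 1303 and 1338 against 539 and 365 CPM, had adult levels of 393 and 553 CPM.

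Other genes ran the opposite way. Cd163 was at 7.85 and 0 CPM in Gpnmb-rich nuclei, 142 and 117 CPM in nuclei with 0 and 188 CPM in the adult library. Cd74 was at 163 and 72.8, 839 and 420.4 and 518 CPM. In both the aged nuclei without Gpnmb lay within 2 times of the adult value. The monocyte genes Ccr2 and Plac8 were at 7.85 and 7.53 and 3.93 and 2.51 CPM in Gpnmb-rich nuclei and at 272 and 631 and 147 and 259.6 CPM in nuclei with 0, against 308 and 34.2 CPM in the adult library. Zeb2, a transcription factor of the lineage, was at 3427 and 3348 CPM in Gpnmb-rich nuclei and 3454 and 4037 CPM in nuclei with 0, close to the adult 3663 CPM.

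**Figure D4:**
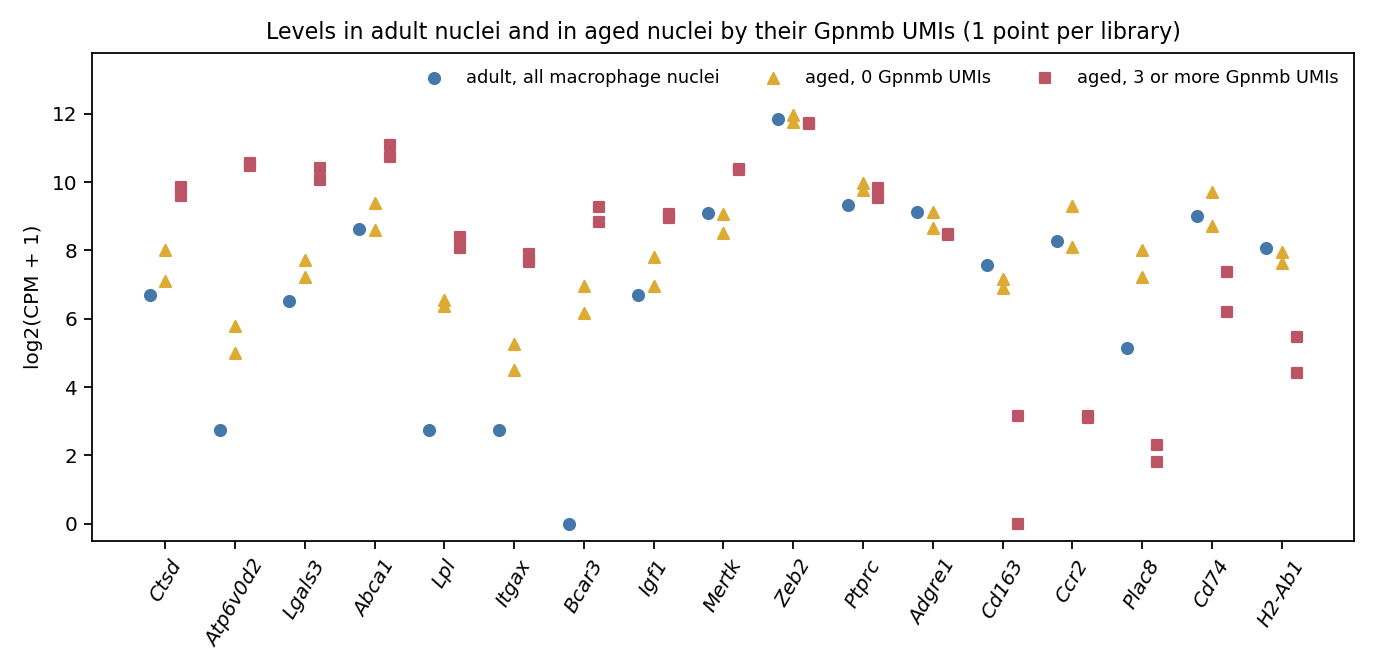
Levels as log2(CPM + 1) in all adult macrophage nuclei (circles), in aged nuclei with 0 Gpnmb UMIs (triangles) and in aged nuclei with 3 or more (squares), 1 point per library. Ctsd and Atp6v0d2 are highest in Gpnmb-rich nuclei (932 and 778 CPM and 1435 and 1501 CPM), while Cd163 and Ccr2 are highest in adult nuclei and in aged nuclei without Gpnmb.

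To ask which age differences were larger in macrophages than in the rest of the ganglion, the age effect was tested against that of all other nuclei of the same libraries. The other nuclei included the 39, 84 and 50 nuclei that had enough macrophage UMIs but failed the ratio. With edgeR 47 of 10164 genes passed, or 0.462%, and the age difference was higher in macrophages for 30 and lower for 17. Gpnmb led the genes with adult UMIs, at 22.8, 2129.6 and 2382 CPM in macrophage nuclei and 8.06, 28.1 and 19.3 CPM in other nuclei (interaction log2 5.24, SE 0.60, adjusted p = 0.0292). Fat3, a large protocadherin, was at 85.4, 692 and 893 CPM in macrophage nuclei and 499.5, 338 and 418 CPM in other nuclei (interaction log2 3.75, adjusted p = 0.0274), so it rose in macrophages while the other nuclei held it throughout. Lrp12, with 4, 263 and 267 macrophage UMIs, Ctsd and Igf1 had interaction log2 values of 3.73, 2.42 and 2.54.

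The other genes most raised in macrophages had almost no adult UMIs there. Bcar3, Anpep and Ttyh2 had 0, Lpl and the ubiquitin ligase subunit Fbxo32 had 1 and the secretory kinase Fam20c and Ksr2 had 2. Fbxo32 had 1, 165 and 174 UMIs (ratio 42.8, counting interval 7.64 to 1697), Fam20c 2, 199 and 135 (ratio 21.1, counting interval 5.80 to 175) and Ksr2 2, 193 and 140 (ratio 21.0, counting interval 5.78 to 174). In other nuclei Lpl was at 4.32, 6.01 and 5.46 CPM, without the step seen in macrophages. Lyz2, lysozyme, was at 529.8, 423 and 336 CPM in macrophage nuclei and 3.94, 20.4 and 11.7 CPM in other nuclei (interaction log2 −2.33, adjusted p = 0.0323), and the B lymphocyte adaptor Bank1 at 489.9, 108 and 65.2 CPM and 20.9, 21.9 and 13.2 CPM (−2.10). For Lyz2 the level in other nuclei rose, and the level in macrophages fell by less.

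Most genes with a lower age difference in macrophages had few adult UMIs there, often from 1 nucleus. Kel had 9 of its 11 adult UMIs in 1 nucleus, Sptb 12 of 15, Ltbp1 21 of 25, Slc25a21 20 of 24 and Me1 11 of 34. Kel, an erythroid blood group protein, Ltbp1, Slc25a21 and Sh3tc2 had interaction log2 values of −6.08, −5.57, −3.97 and −3.83, and Sptb, Pde10a, Me1, Col8a1, Itga7 and St3gal6 of −3.44, −3.23, −3.21, −3.08, −2.85 and −2.76. The number of calls moved with the settings: with the size factors of DESeq2 in place of TMM, edgeR called 0 genes (1460 at an unadjusted p under 0.05), and with 5 or more marker UMIs in the gate also 0 (1329). DESeq2 itself called 88, with 43 of the 47 among them, and all 47 kept their sign in both of the fits with its size factors. With B and T lymphocyte nuclei as the comparison 2 genes passed.

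**Figure D5:**
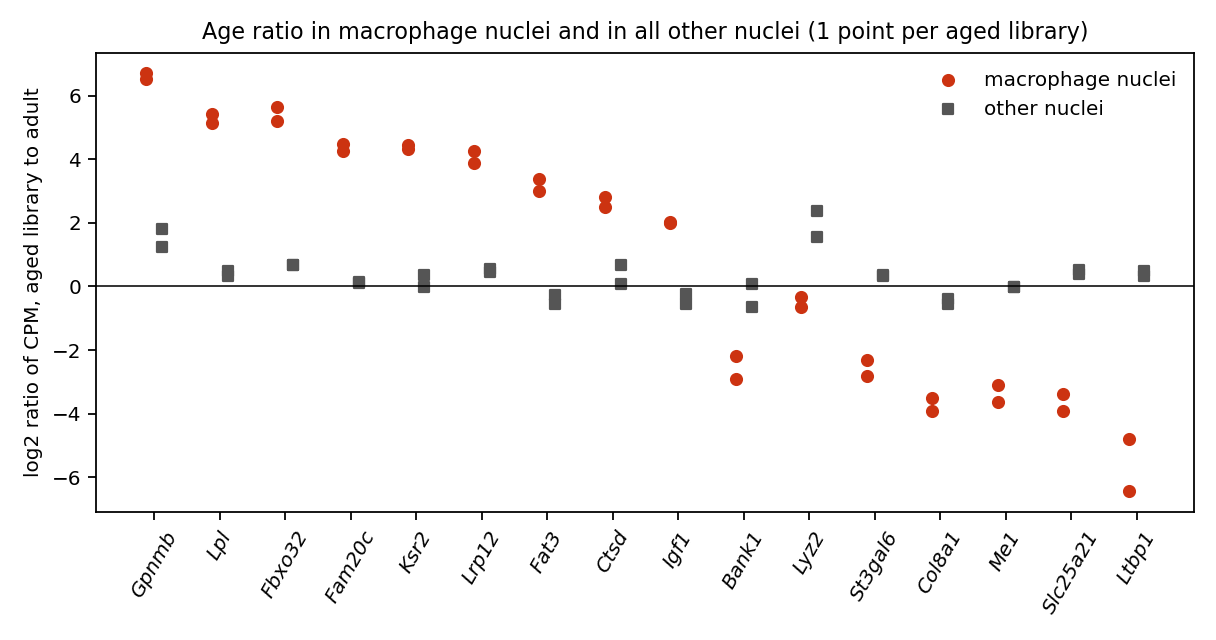
Log2 ratio of CPM of each aged library to the adult library in macrophage nuclei (circles) and in all other nuclei (squares) for 16 genes called in the test against other nuclei. The 2 aged libraries lie close together for most genes, and Gpnmb (interaction log2 5.24) and Ltbp1 (−5.57) mark the ends, with Lpl, Fbxo32, Fam20c and Ksr2 resting on 1 or 2 adult UMIs.

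Macrophages differed among themselves in MHC class II within every library. Nuclei with 2 or more UMIs over H2-Aa, H2-Ab1, H2-Eb1 and Cd74 were 33 of 61 in the adult library (54.1%, 40.9% to 66.9%). They were 66 of 159 (41.5%, 33.8% to 49.6%) and 34 of 124 (27.4%, 19.8% to 36.2%) in the aged replicates 1 and 2, and 17, 74 and 75 nuclei had 0. Depth did not run with this split in the way it ran with Gpnmb: the median nucleus had 2312, 3661 and 3668 UMIs with class II and 2417, 4058 and 4579 without. Both 3 or more Gpnmb UMIs and 2 or more class II UMIs were held by 30 of 159 and 11 of 124 aged nuclei. In those libraries 88 and 76 nuclei had that many Gpnmb UMIs and 66 and 34 that many class II UMIs. No adult nucleus held both, but only 1 had 3 or more Gpnmb UMIs, so an adult overlap could hardly be seen.

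Nuclei with class II were then tested against nuclei without, with the library as a block and the genes that define the split left out. Of 5467 genes 1 passed, or 0.0183%, and 403 had an unadjusted p under 0.05. The gene was Ciita, the class II coactivator, with 43, 69 and 32 UMIs in nuclei with class II and 1, 7 and 10 in nuclei without (log2 fold change 3.40, SE 0.37, adjusted p = 0.000255). It was higher in all 3 libraries. Some markers of B lymphocytes and dendritic cells were also higher in nuclei with class II without passing the test, and their part in the result was not tested. The B lymphocyte gene Bank1 was at 488, 191 and 159 CPM against 395, 40.8 and 42.3 CPM (log2 fold change 1.49, adjusted p = 0.15), and the dendritic cell gene Batf3 had a log2 value of 1.78 (adjusted p = 0.255). Itgax, the other dendritic cell gene fitted, was at −0.25 (adjusted p = 0.954). Siglech had 11, 3 and 15 UMIs against 2, 1 and 0 (adjusted p = 0.209). Ccr2 had 45, 45 and 58 UMIs against 9, 5 and 49 and did not pass (log2 fold change 1.98, adjusted p = 0.0549), at 488, 137 and 401 CPM in nuclei with class II against 198, 13.6 and 122 CPM in nuclei without. H2-DMb1, a peptide loader, had an adjusted p of 0.122. With more than 2000 genes per nucleus 0 genes passed, and without the adult library 26 did.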

How the data were processed

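Nuclei of L3 to L5 DRG from C57BL/6 mice were profiled by PIP-seq in 1 adult and 2 aged libraries. The authors deposited UMI counts per gene and barcode, made with PIPseeker v3.3.0 per the study's methods, and the submitters' processing notes name mm10. The deposited counts were not normalized, and all 32227 genes were used. From them nuclei with more than 1000 genes were gated, UMIs were summed per library, and the sums were tested with edgeR 4.0.16 in R 4.3.3 (quasi-likelihood test, TMM, filterByExpr, Benjamini-Hochberg, threshold 0.05), leaving the genes of the gate out of the calls. The tests had 1 residual degree of freedom for age and for age against other nuclei and 2 for the MHC class II split. Each SE is the absolute log2 fold change divided by the square root of the F statistic of the quasi-likelihood test. The methods of the study tested nuclei, which are not replicates, so sums per library were tested here. A CPM is a count per 1000000 UMIs of a library's macrophage sum, and per-library depth and free RNA are in the results text.

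The members and the gene lists were chosen with earlier results of these data known. Named genes were the 10 with the largest log2 fold change in each direction among genes past the threshold with 20 or more UMIs and the same direction in every library, predicted genes left out, beside members of the lists. Bounds for genes with 0 adult UMIs took 3 UMIs as a floor, and intervals are 95% exact. Alternatives were DESeq2 1.42.0, its size factors in edgeR, no filter, other gates and gene minimums, thinning to 1000 UMIs, subtraction of free RNA (from barcodes of 100 or fewer UMIs) and leaving out each aged library. For the shares the gate was applied after thinning, while the thinned gene tests kept the nuclei gated on all their UMIs. Sums without the highest nucleus of each gene were added after the data were seen. The scripts were tested on simulated data. Shares were compared with an exact permutation test in Python 3.11.15 with SciPy 1.17.1. Gene positions came from GENCODE (GRCm38), and promoters from RefSeq (GRCm38.p6). Some genes are not reported here, though the counts of the lists include them.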

Additional observations from a re-analysis of the deposited data

Results flagged for a closer look

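The age difference of macrophages and that of all other nuclei were tested against each other for every gene, and 47 genes differed with edgeR's quasi-likelihood test. Those named by rule or held in a list are given here with their adjusted p for that difference, which rests on 1 adult library, and 0 of the 47 passed in edgeR with the size factors of DESeq2, 43 in DESeq2, 0 with 5 marker UMIs in the gate, 39 of 46 with more than 2000 genes, 30 of 35 after thinning and 2 against lymphocytes.

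Raised more in macrophages were Bcar3 (adjusted p = 0.0274), Fat3 (0.0274), Gpnmb (0.0292), Anpep (0.0323), Lrp12 (0.0323), Ttyh2 (0.0323), Igf1 (0.0363), Fam20c (0.0370), Ctsd (0.0425), Fbxo32 (0.0425), Lpl (0.0425) and Ksr2 (0.0475). Gpnmb, Ctsd and Lpl belong to the lipid-associated list, and Igf1 is a growth factor. Fat3 was higher in other nuclei than in macrophages of the adult library and higher in macrophages of both aged libraries.

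The age difference was lower in macrophages than in other nuclei for Ltbp1 (adjusted p = 0.0292), Slc25a21 (0.0323), Me1 (0.0323), Lyz2 (0.0323), Kel (0.0331), St3gal6 (0.0363), Col8a1 (0.0396), Bank1 (0.0396), Sh3tc2 (0.0425), Itga7 (0.0475), Pde10a (0.0475) and Sptb (0.0475). For Ltbp1, Slc25a21, Kel and Sptb most adult UMIs came from 1 nucleus. Lyz2 and Bank1 are genes of myeloid cells and B lymphocytes. Lyz2 was higher in the other nuclei of both aged libraries than in those of the adult one.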

How the results depend on the processing

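No paired analysis was possible because the labels give no pairing or batch between adult and aged libraries, so no block could be fitted across the ages. For age, 1267 genes became 158 with DESeq2, which gave 5236 genes an adjusted p. They became 777 with 5 or more marker UMIs in the gate and 281 after thinning, where 4260 genes were tested. RLE scaling gave 1268, no filter 1266 (745 higher, 521 lower), free RNA subtraction 900, more than 2000 genes 1220 and leaving out the highest nucleus of each gene, chosen after the data were seen, 1137. Without either aged library no test was left, and all 1267 genes kept their sign. For age against other nuclei, 47 became 88 with DESeq2, 0 with RLE scaling (1460 at an unadjusted p under 0.05), 426 without a filter, 0 with 5 marker UMIs (1329), 221 with more than 2000 genes, 183 after thinning and 2 against lymphocytes. For the MHC class II split, 1 became 2 with DESeq2, 73 without a filter, 0 with more than 2000 genes (150 at an unadjusted p under 0.05), 7 after thinning, 32 with 3 or more UMIs against 0, and 2 to 26 with 1 library left out. The share ratio of 7.41 became 4.72 after thinning and rose to 13.97 with more than 2000 genes. Of the 1267 genes, those that could be fitted kept their sign in 1208 of 1232 with more than 2000 genes, 1171 of 1184 after free RNA subtraction, 891 of 898 after thinning and 1222 of 1223 without the highest nucleus, and of the 47 in 45 against lymphocytes. Among genes of the lists or named by rule, those that turned were Batf3 (0.82), Cd74 (0.86), Dab2 (0.017) and H2-Eb1 (1.11) with more than 2000 genes, Ebf1 (5.62) and Hspa8 (7.19) after free RNA subtraction, Scn7a (0.91) without the highest nucleus and Kel (0.37, against lymphocytes). The free RNA subtraction took most from the adult sums and set negative counts to 0, so the values of Ebf1 and Hspa8 after it may rest on adult counts near 0. Apart from this and the smaller number of genes or nuclei in some fits, the cause was not tested. The 61 adult nuclei and their 175550 UMIs limit what could be detected.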

Other observations

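Some lymphocyte and glial genes in the macrophage sums were lower in the aged libraries. Bank1, a B lymphocyte adaptor, was at 489.9, 108 and 65.2 CPM (log2 fold change −2.47, SE 0.26, adjusted p = 2.62e-19), and Scn7a, a sodium channel gene of non-myelinating Schwann cells, at 125, 41.3 and 14.7 CPM (log2 fold change −2.11, SE 0.47, adjusted p = 0.000224), in the order adult, aged replicate 1, aged replicate 2. Ebf1, expressed in B lymphocytes and stromal cells, was at 154, 68.3 and 63.5 CPM (log2 fold change −1.21, SE 0.38, adjusted p = 0.0151). Scn7a turned to 0.91 (adjusted p = 0.666) without its highest nucleus in each library. Ebf1 turned to 5.62 (adjusted p = 0.415) after free RNA was subtracted, which cut the adult counts most. The granulocyte gene Ngp had 0, 33 and 10 UMIs. Endothelial genes summed to 68.4, 50.3 and 63.5 CPM, mural genes to 28.5, 9.02 and 8.15 CPM, mast cell genes to 45.6, 33.5 and 21.2 CPM, microglial genes to 268, 228 and 243 CPM, dendritic cell genes to 182, 192 and 219.9 CPM and monocyte genes to 518, 192 and 445 CPM.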
